A study of Mus musculus with 6 samples.

Results

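The promoters of 38 genes that act in meiosis and in the making of sperm and eggs were examined for CpG methylation in advanced pluripotent stem cells (ASCs), embryonic stem cells (ESCs) and epiblast stem cells (EpiSCs) of the mouse. A promoter was the stretch from 1000 bp before to 100 bp after the main transcription start of a gene on GRCm38, and the 38 genes were taken by name from 21646 protein-coding genes. Of these promoters, 37 had at least 20 observations in every library, where an observation is 1 read over 1 CpG, and so did 16964 of all 21646 promoters. Tex15, with 4 CpG sites and 10 observations in its shallowest library, fell short, and Zp3, with 33, was the tested member closest to the minimum.

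The 6 libraries, 2 per cell type, come from bisulfite sequencing of the whole genome. All libraries are labelled as wild type cells of the strain 129S2/SvPasCrl, and the study's text speaks of female cells of all 3 types, though the labels give no sex for these libraries. In the study's methods, however, the lines that gave rise to ASCs came from crosses with reporter-carrying males of mixed background. Which lines gave these libraries is not stated. ASCs descend from blastocyst-derived lines moved into a defined medium with activin A, BMP4, CHIR99021 and LIF. ESCs were kept in 2i/LIF, which holds them in a naive state of low methylation, and EpiSCs are primed cells like the epiblast after implantation. The labels number the libraries as replicates but name no line or clone, so the p-values speak for these libraries only. Their error term draws in part on the spread between libraries at all promoters tested.

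The libraries held between 63803799 and 74925271 CpG reads, a mean coverage of 2.96 to 3.46 reads per listed CpG. Over chromosomes 1 to 19 and X, 59.8% and 60.2% of CpG reads were methylated in ASCs, against 17.9% and 18.2% in ESCs and 81.0% and 80.2% in EpiSCs. The promoters of Zfp42, Tcl1 and Dppa3, genes used as markers of the naive state, stood at 0%, 4.08% and 9.42% in ASCs and at 96.2%, 93.7% and 98.6% in EpiSCs, and Nanog at 5.19% and 49.4%. Esrrb, also on that list, was at 23.1% in ASCs and 18.1% in EpiSCs and was not called. The promoters of Pou5f1 and Sox2, which all pluripotent cells use, were below 1% in every group. The promoters of Fgf5, Otx2 and Eomes, listed as markers of the primed state, were called in no comparison. Their highest group mean was 5.005%, at Fgf5 in EpiSCs, so they do not set the cell types apart. Promoter methylation does not measure expression, and the labels could be checked no further here.

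Meiosis is the pair of divisions by which germ cells reduce their chromosome number. Before the first division, cohesin and axis proteins fold each chromosome, Spo11 cuts the DNA, recombinases repair the cuts from the partner chromosome, and the synaptonemal complex zips the partners together. Most of the genes involved are silent outside the germ line, and for many of them DNA methylation of a CpG-containing promoter is a known part of that silencing. Naive pluripotent cells carry little of this methylation, and the epiblast gains it around implantation.

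To show what the measured sequences look like, the 200 bases before the start are printed for 4 members that reached a high level in EpiSCs and stood at unlike levels in ASCs, chosen after their values were seen. They were read from the GRCm38 genome, 5′ to 3′ on the strand of the gene, with each CpG in capitals, and none of these windows overlaps an annotated exon. Meioc lies at chr11:102665388-102665587 on the plus strand, Rec8 at chr14:55617837-55618036 on the plus strand, Hormad1 at chr3:95559477-95559676 on the plus strand and Dazl at chr17:50293637-50293836 on the minus strand.
Meioc: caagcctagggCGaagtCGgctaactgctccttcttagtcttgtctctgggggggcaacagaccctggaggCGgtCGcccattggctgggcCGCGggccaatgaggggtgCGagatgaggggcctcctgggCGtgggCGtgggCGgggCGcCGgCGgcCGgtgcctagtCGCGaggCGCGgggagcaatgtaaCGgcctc
Rec8: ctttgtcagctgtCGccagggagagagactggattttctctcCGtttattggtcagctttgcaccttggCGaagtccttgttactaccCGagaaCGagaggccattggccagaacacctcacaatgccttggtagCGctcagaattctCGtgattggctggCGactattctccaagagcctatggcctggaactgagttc
Hormad1: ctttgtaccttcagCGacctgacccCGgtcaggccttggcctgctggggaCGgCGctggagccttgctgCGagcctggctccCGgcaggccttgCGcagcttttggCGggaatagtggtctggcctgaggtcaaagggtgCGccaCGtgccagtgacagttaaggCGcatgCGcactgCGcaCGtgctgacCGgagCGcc
Dazl: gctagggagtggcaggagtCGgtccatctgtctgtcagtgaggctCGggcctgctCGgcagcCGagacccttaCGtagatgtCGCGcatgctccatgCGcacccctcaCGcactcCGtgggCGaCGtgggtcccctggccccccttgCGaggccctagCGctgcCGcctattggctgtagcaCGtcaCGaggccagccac

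The 19 CpGs of the Meioc stretch were unmethylated in both ASC libraries, with 0 of 101 and 0 of 33 observations methylated, which allows levels of up to 2.97% and 9.09%, and stood at 95.9% and 99.1% in the EpiSC libraries. The 8 CpGs of Rec8 were at 0% in both ASC libraries, where 18 and 27 observations allow levels of up to 16.7% and 11.1%, and at 87.5% and 100% in EpiSCs. The 16 CpGs of Hormad1 were at 36.1% and 43.6% in ASCs and at 97.0% and 97.9% in EpiSCs. The 17 CpGs of Dazl were at 68.9% and 54.5% in ASCs, at 14.3% and 22.8% in ESCs and at 94.7% and 97.3% in EpiSCs. The EpiSC libraries were thus near fully methylated over all these stretches, and the ASC libraries ran from unmethylated to mostly methylated.

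The first comparison asked how far ASCs differ from primed EpiSCs at these promoters. All 37 members were lower in ASCs than in EpiSCs by group mean, and 31 of 37 were called lower, with an adjusted p under 0.05 and a difference of at least 20 percentage points. Over all promoters tested, 28.1% were called lower in ASCs. None of the 37 was called higher by the quasi-binomial test moderated with limma, by limma on M values or by Fisher's exact test, and since every difference was negative none could be at any p, while 0.206% of all promoters were called higher. The median difference of the members was -49.2 percentage points, against -8.45 over all promoters tested.

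In the comparison of ASCs with naive ESCs, 21 of 37 members were called higher in ASCs, beside 24.6% of all promoters. With 40 points in place of 20 there were 9, beside 14.2% of all promoters. In a short window from 250 bp before the start to 50 bp after there were 0 of 33 members and 0 of 11599 promoters. There 14 members and 796 of all promoters passed at an unadjusted p under 0.05 with 20 points. Of the tests added there after the 0 was seen, limma on M values called 11 members, beside 5.28% of all promoters. Fisher's exact test on counts summed over the libraries of a group, which leaves out their spread, called 14, beside 7.18%. No member was called lower in ASCs by any of the same tests, over the whole promoter or in the short window. Over the whole promoter the lowest difference was -0.0448 points at Syce2, and by the quasi-binomial test 0.0% of all promoters were called lower. In the short window some members were lower in ASCs by group mean, such as Meiob at 1.66% against 3.30% in ESCs. At Majin, Nobox, Spo11, Stra8 and Sycp2, all called higher over the whole promoter, the difference itself shrank there. It was 0.490, 11.6, 8.37, 2.58 and 15.6 points in that order. EpiSCs were called higher than ESCs at 33 of 37 members, beside 44.3% of all promoters, and lower at none, beside 0.00589%. The comparisons share their libraries and are not independent of each other.

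**Figure D1:**
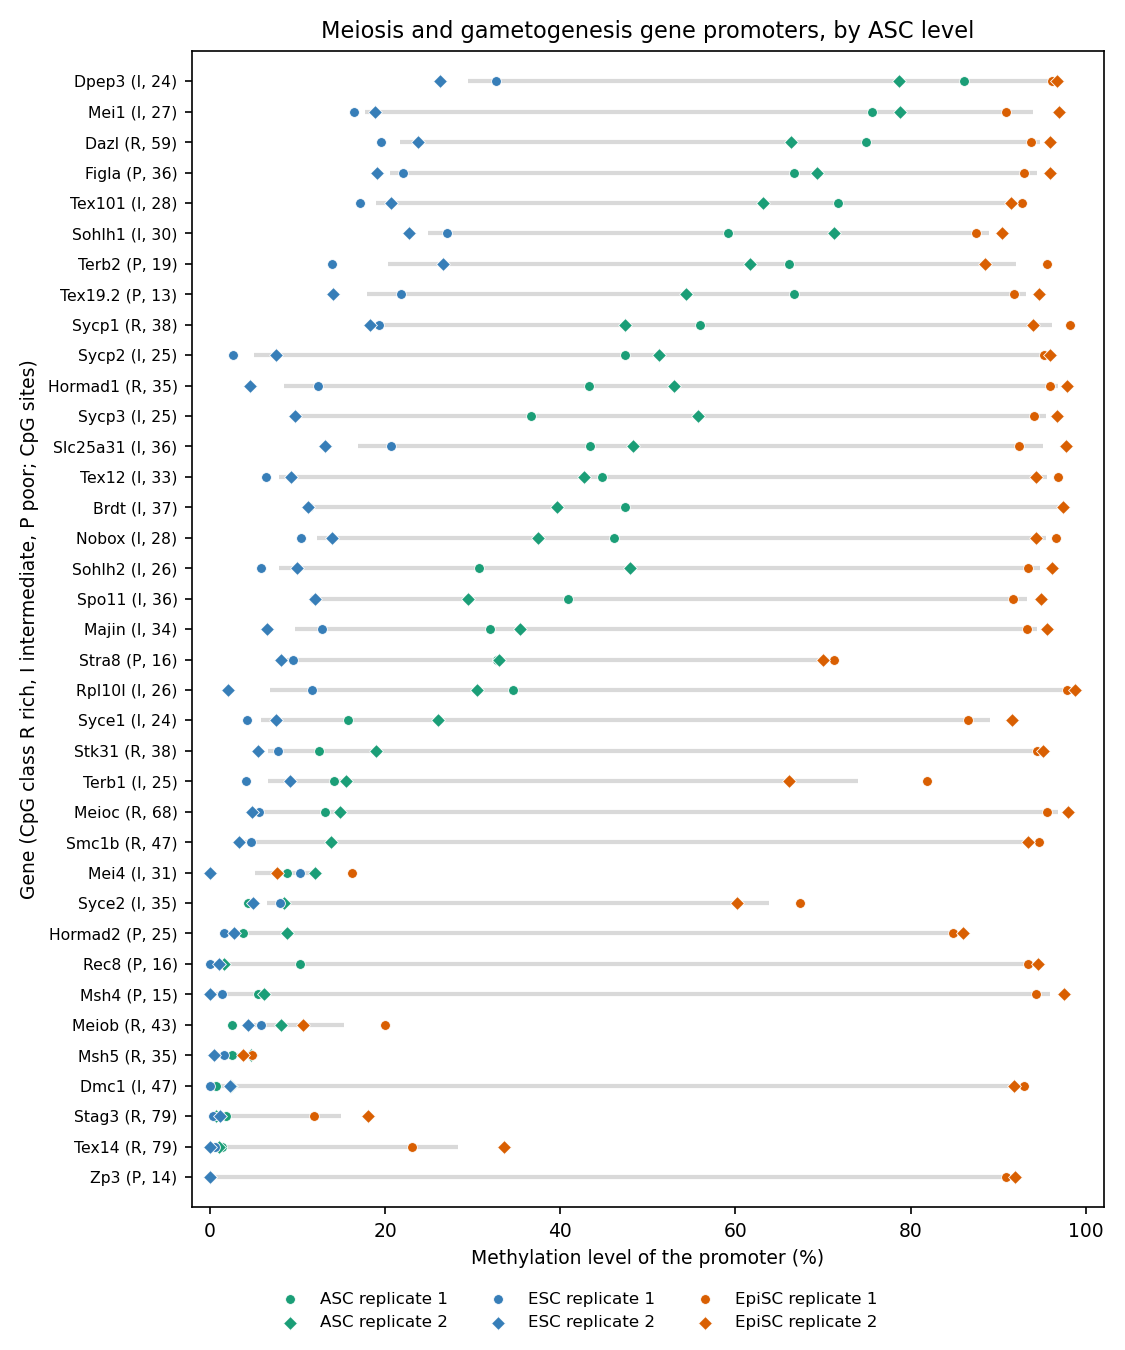
Methylation level in percent (horizontal axis) of the 37 tested promoters (rows, sorted by the ASC mean, with CpG class and number of CpG sites in brackets). Each circle or diamond is a library and each grey bar joins the ESC and EpiSC means. The ASC points run from 0% at Zp3 to over 78% at Dpep3, while most EpiSC points lie above 85%.

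In ASCs the members spread over the whole scale, as the plot of levels by gene shows. By group mean, 15 of 37 stood at 20% or less, 14 between 20% and 60%, and 8 above 60%. In EpiSCs 32 of 37 stood above 60% and 29 above 80%, while in ESCs 32 of 37 stood at 20% or less and none above 60%. Among all promoters tested, 26.6% stood above 60% in EpiSCs and 12.6% in ASCs.

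The largest gaps between ASCs and EpiSCs were at Zp3, Dmc1, Msh4, Rec8 and Meioc. Zp3, which encodes a glycoprotein of the egg coat, was at 0% in both ASC libraries and both ESC libraries and at 90.9% and 91.9% in EpiSCs. The counts of 0 came from 40 and 54 observations in ASCs, which allow levels of up to 7.5% and 5.56%, and from 33 and 50 in ESCs. The difference was -91.4 percentage points (adjusted p = 2.76e-06). Dmc1, the recombinase that acts only in meiosis, was at 0.725% and 2.46% in ASCs, against 0% and 2.29% in ESCs and 92.96% and 91.8% in EpiSCs. Its ASC and ESC libraries overlapped, and its difference from EpiSCs was -90.8 points (adjusted p = 4.92e-07).

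Msh4, which steadies crossover intermediates, was at 5.56% and 6.15% in ASCs, against 1.37% and 0% in ESCs and 94.3% and 97.5% in EpiSCs. Rec8, the meiotic cohesin subunit that is cut when chromosomes part, was at 10.3% and 1.61% in ASCs, against 0% and 1.08% in ESCs and 93.3% and 94.5% in EpiSCs. Meioc, which keeps germ cells in meiotic prophase, was at 13.2% and 14.9% in ASCs, against 5.63% and 4.79% in ESCs and 95.5% and 98.0% in EpiSCs. All of these had ASC libraries near the ESC libraries and far from the EpiSC libraries. Their differences from EpiSCs were -90.0 (adjusted p = 2.52e-06), -88.0 (adjusted p = 5.65e-06) and -82.7 points (adjusted p = 1.28e-07).

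The smallest gaps belonged to Msh5, Mei4, Meiob, Stag3 and Dpep3, of which Dpep3 was high in all cell types relative to the other members. Msh5, the partner of Msh4, was at 2.52% and 4.76% in ASCs, against 1.59% and 0.524% in ESCs and 4.84% and 3.85% in EpiSCs. Mei4, which is needed for the cuts by Spo11, was at 8.82% and 12.0% in ASCs, against 10.3% and 0% in ESCs and 16.3% and 7.69% in EpiSCs. Meiob, which binds single-stranded DNA in meiotic recombination, was at 2.50% and 8.18% in ASCs, against 5.83% and 4.37% in ESCs and 20% and 10.7% in EpiSCs. The promoters of Msh5, Mei4 and Meiob were at 20% or less in every library. None of the differences between ASCs and EpiSCs passed the test (adjusted p = 0.693, 0.749 and 0.0752). Against ESCs, EpiSCs were higher by 3.29 points at Msh5 (adjusted p = 0.0401), 6.86 points at Mei4 (adjusted p = 0.154) and 10.2 points at Meiob (adjusted p = 0.0185), all below 20 points, and both EpiSC libraries of Meiob lay above all its other libraries.

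Stag3, a meiotic cohesin subunit, was at 1.80% and 0.733% in ASCs, against 0.322% and 1.17% in ESCs and 11.9% and 18.1% in EpiSCs. The EpiSC libraries of Stag3 lay above all others (adjusted p = 0.000311 against ASCs), but the difference of -13.7 points was below the 20 points set for a call. Within 500 bp of the start the difference of Stag3 was -26.2 points and that of Mei4 -22.6 points, and both were called. Dpep3, a peptidase gene expressed in the testis, was at 86.1% and 78.7% in ASCs, against 32.6% and 26.3% in ESCs and 96.1% and 96.7% in EpiSCs. It had the highest level of all tested members in both ASCs and ESCs.

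After Dpep3, the highest ESC levels of the tested members were at Sohlh1 and Dazl. Sohlh1, a transcription factor of early germ cells, was at 27.1% and 22.7% in ESCs, 59.2% and 71.2% in ASCs and 87.5% and 90.4% in EpiSCs. Dazl, an RNA-binding protein that germ cells need to enter meiosis, was at 19.6% and 23.8% in ESCs, 74.9% and 66.3% in ASCs and 93.7% and 95.9% in EpiSCs. The 3 cell types did not overlap at either gene. The call against EpiSCs was lost for Sohlh1 without ASC replicate 1, where the difference was -17.7 points, and for Dazl without ASC replicate 2, where it was -19.9 points.

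By role, the 5 genes of meiotic entry and germ cell regulation were called lower in ASCs than in EpiSCs, beside 28.1% of all promoters, and 4 of 5 higher than in ESCs, beside 24.6%. In the short window from 250 bp before the start to 50 bp after, Dazl, Sohlh1 and Stra8 were not called against EpiSCs (differences of -30.3, -30.0 and -18.6 points, adjusted p = 0.0558, 0.128 and 0.28). Against ESCs none of the 5 was called there, with differences of 44.8 points at Dazl, 38.3 at Sohlh1 and 2.58 at Stra8, so at Dazl and Sohlh1 the call was lost while the difference was of similar size. Stra8, the gene that retinoic acid switches on at the start of meiosis, was at 70.6% ± 0.87 in EpiSCs, against 32.9% ± 0.16 in ASCs and 8.80% ± 0.97 in ESCs (SD, n = 2 each). Within 500 bp of the start its gain over ESCs was 18.4 points and was not called, nor was that of Sycp2, at 14.8 points. Sohlh2, the partner of Sohlh1, was at 30.8% and 47.9% in the ASC libraries, one of the widest replicate gaps among the members, and at 93.4% and 96.1% in EpiSCs.

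Of the members, 6 encode parts of the synaptonemal complex, and these were called lower in ASCs than in EpiSCs by 44.4 to 68.1 percentage points, beside 28.1% of all promoters. Syce3, a central element gene that is not a member and is named after its values were seen, was at -19.4 points and was not called. Sycp1, whose protein spans the gap between the paired axes, was at 51.7% ± 6.07 in ASCs (SD, n = 2) and 96.1% ± 2.96 in EpiSCs (SD, n = 2). Sycp3, a protein of the lateral elements, was at 36.7% and 55.7% in the ASC libraries, and Sycp2, its partner, at 49.4% ± 2.73 in ASCs (SD, n = 2). The central element genes were less alike, with Tex12 at 43.8% ± 1.44, Syce1 at 20.9% ± 7.21 and Syce2 at 6.45% ± 2.92 in ASCs (SD, n = 2 each). Sycp1, Sycp2, Sycp3 and Tex12 were also called higher in ASCs than in ESCs, beside 24.6% of all promoters.

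Hormad1 and Hormad2, paired proteins of the chromosome axis, were both called lower in ASCs than in EpiSCs, beside 28.1% of all promoters. They stood at different levels in ASCs. Hormad1 was at 48.1% ± 6.90 and Hormad2 at 6.31% ± 3.61 in ASCs (SD, n = 2 each), and both were above 84% in every EpiSC library. Hormad1 was called higher in ASCs than in ESCs (difference of 39.7 points, adjusted p = 0.000197), beside 24.6% of all promoters. Hormad2 differed from ESCs by 4.14 points (adjusted p = 0.154).

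The 3 meiotic cohesin genes stood at 13.8% or less in ASCs. Of these, 2 were called lower in ASCs than in EpiSCs, beside 28.1% of all promoters, and none higher than in ESCs, beside 24.6%. Smc1b was at 13.8% in both ASC libraries and at 94.0% ± 0.89 in EpiSCs (SD, n = 2). The start of Ribc2, which runs the other way, lies 114 bp before the start of Smc1b, so its promoter is shared, as is that of Stag3 with Gpc2.

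Among the 7 genes of break formation and recombination, 3 were called lower in ASCs than in EpiSCs, a share not far from the 28.1% of all promoters. Besides Dmc1 and Msh4 this was Spo11, the enzyme that cuts the DNA, at 40.8% and 29.5% in ASCs and 91.7% and 94.9% in EpiSCs. Mei1, also needed for the cuts, was at 75.5% and 78.8% in ASCs, against 16.5% and 18.8% in ESCs and 90.9% and 96.9% in EpiSCs. It had the largest gain over ESCs of all members, 59.5 points (adjusted p = 5.78e-05), and its difference of -16.7 points from EpiSCs was below 20. With the most upstream annotated start in place of the main start, that difference was -54.5 points.

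The 3 genes that tie chromosome ends to the nuclear envelope were all called lower in ASCs than in EpiSCs, and so were the 3 oocyte genes, beside 28.1% of all promoters. Majin was at 33.7% ± 2.43, Terb1 at 14.9% ± 1.002 and Terb2 at 63.9% ± 3.20 in ASCs (SD, n = 2 each). The EpiSC libraries of Terb1 stood 15.7 points apart, at 81.8% and 66.1%, and both lay above its ASC libraries at 14.2% and 15.6%. The call of Terb2 was lost without EpiSC replicate 1 (difference of -24.6 points, adjusted p = 0.0699), and its promoter holds the start of Patl2. The oocyte transcription factors Figla and Nobox were at 68.0% ± 1.86 and 41.8% ± 6.12 in ASCs (SD, n = 2 each), against 0% at Zp3.

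Of the 8 tested genes with other germ cell roles, 7 were called lower in ASCs than in EpiSCs, beside 28.1% of all promoters, and 6 higher than in ESCs, beside 24.6%. Brdt, a bromodomain protein of spermatocytes, was at 43.5% ± 5.55, Slc25a31, an ATP carrier of sperm mitochondria, at 45.9% ± 3.51, Tex101 at 67.5% ± 6.04, Tex19.2 at 60.5% ± 8.71 and Rpl10l at 32.6% ± 2.87 in ASCs (SD, n = 2 each). Stk31 was at 15.8% ± 4.60 in ASCs (SD, n = 2). Tex14, whose protein holds germ cells together by bridges, was at 1.20% ± 0.24 in ASCs and 28.3% ± 7.48 in EpiSCs (SD, n = 2 each). The untested Tex15 was at 71.4% and 78.9% in ASCs and 100% in both EpiSC libraries, and its ESC libraries, with 10 and 11 observations, gave 80% and 9.09%.

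The value of Tex14 depended on position. Its promoter is also shared, since another gene on the other strand starts 111 bp before it. In EpiSCs the 250 bp before the start of Tex14 were at 94.3% and the first 250 bp of the promoter, which begins 1000 bp before it, at 0.443%, over 106 and 226 observations summed over both libraries. Stra8 had the opposite shape, with 24.5% in the 250 bp before the start and 93.3% in the 250 bp before that, over 49 and 15 observations in EpiSCs.

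The second question was whether CpG-rich and CpG-poor promoters of these genes differ. A promoter was called CpG-rich where some 500 bp window had a ratio of observed to expected CpGs above 0.75 and a GC content above 55%, CpG-poor where no window had a ratio above 0.48, and CpG-intermediate otherwise. Of the 37 tested members, 10 were CpG-rich, 19 intermediate and 8 CpG-poor. The classes were compared by counts and medians, with no test.

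In EpiSCs the medians of the members were close in all classes. The median level was 93.9% ± 0.23 in CpG-rich, 93.9% ± 1.34 in intermediate and 92.8% ± 0.61 in CpG-poor members (SD over 2 libraries). Over all promoters tested, the EpiSC medians were 4.77%, 18.9% and 85.7% in the same order. Above 60% in EpiSCs stood 6 of 10 CpG-rich members, beside 1.64% of all CpG-rich promoters, and 8 of 8 CpG-poor members, beside 76.6% of all CpG-poor promoters.

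**Figure D2:**
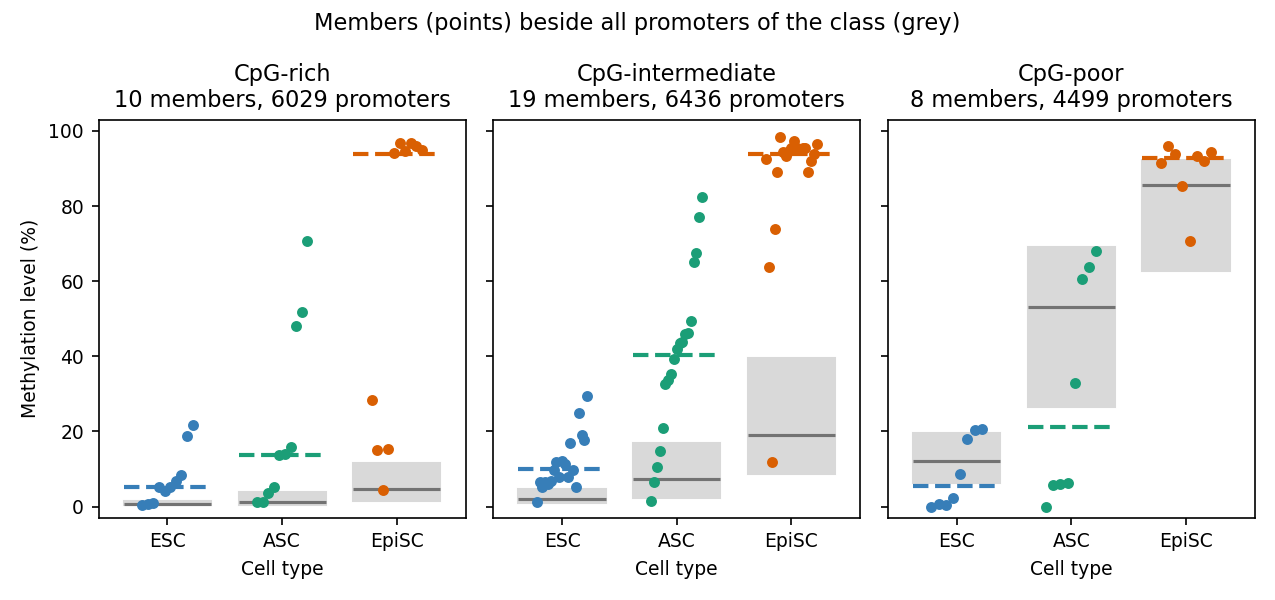
Mean methylation level in percent of each member (points) by cell type in the 3 CpG classes, with the member median dashed. Grey boxes give the middle 50 percent of all promoters of the class and the grey line their median, and most CpG-rich and intermediate members lie far above the boxes in EpiSCs, with medians of 93.9% against 4.77% and 18.9%.

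In ASCs the medians were 13.6% ± 1.08 in CpG-rich, 40.2% ± 0.89 in intermediate and 21.2% ± 0.44 in CpG-poor members (SD over 2 libraries). The CpG-poor median rests on few promoters, and with a minimum of 40 observations, which leaves 5, it was 32.9% in ASCs and 8.80% in ESCs. Over all promoters the ASC medians were 1.16%, 7.28% and 53.1%. The CpG-poor members thus had a lower median than CpG-poor promoters at large, with Zp3, Msh4, Rec8 and Hormad2 below 7% and Stra8, Tex19.2, Terb2 and Figla between 32.9% and 68.0%. In ESCs the medians were 5.10% ± 0.89, 10.1% ± 0.51 and 5.48% ± 0.08. Counting promoters with 33 or more CpG sites as rich and the others as poor gave ASC medians of 23.6% and 36.1% for members.

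Among the CpG-rich members, 7 of 10 were called lower in ASCs than in EpiSCs, beside 7.02% of all CpG-rich promoters. Among the intermediate members 16 of 19 were called, beside 27.6%, and among the CpG-poor members 8 of 8, beside 57.1%. Against ESCs, 3 of 10 CpG-rich members were called higher in ASCs, beside 0.614%, 14 of 19 intermediate members, beside 13.3%, and 4 of 8 CpG-poor members, beside 72.9%. EpiSCs were called higher than ESCs at 7 of 10 CpG-rich, 18 of 19 intermediate and 8 of 8 CpG-poor members, beside 9.82%, 43.0% and 92.4%. No member of any class was called the opposite way, and among all promoters 0.0166%, 0.186% and 0.489% were called higher in ASCs than in EpiSCs, and 0%, 0.0155% and 0% lower in EpiSCs than in ESCs. The CpG-rich members called against ESCs were Dazl, Hormad1 and Sycp1. Only 5 of 6029 CpG-rich promoters stood above 60% in ASCs, and Dazl, at 70.6% ± 6.07 (SD, n = 2), was the highest of all of them.

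**Figure D3:**
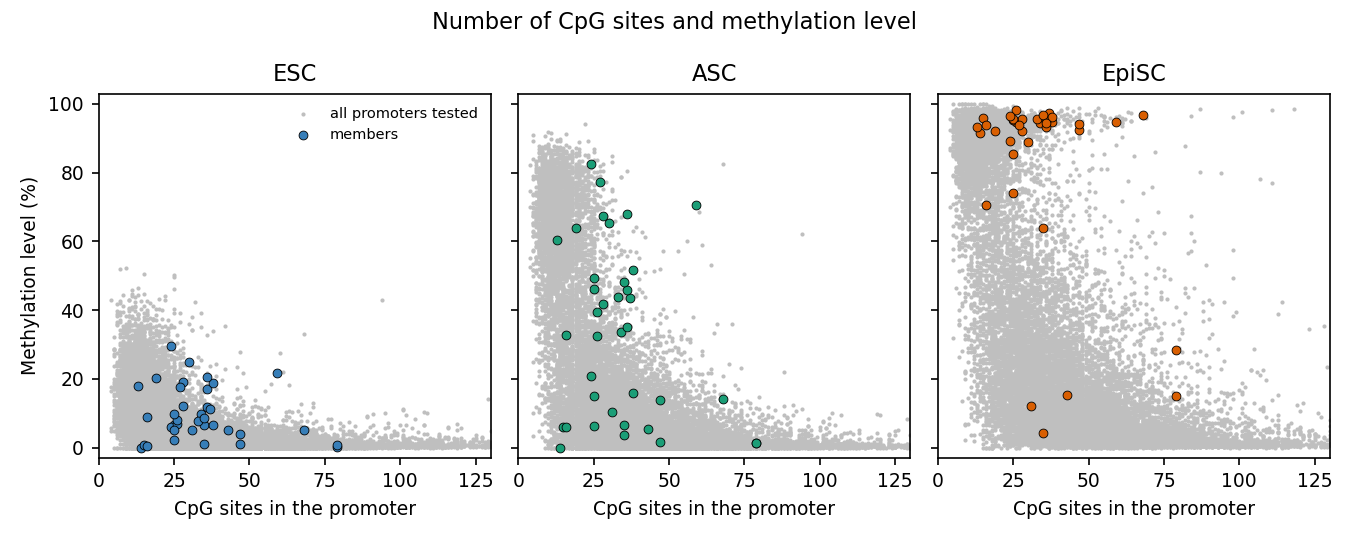
Number of CpG sites in the promoter (horizontal axis) and mean methylation level in percent (vertical axis) in each cell type, with members in colour and all 16964 tested promoters in grey (93 with more sites than the axis shows are left out). In EpiSCs many members with 33 or more CpG sites lie near the top, up to Meioc with 68, and Mei4, Msh5, Meiob, Stag3 and Tex14 lie below 30%.

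Across all promoters the level fell with the number of CpG sites, with Spearman's rho of -0.758 in EpiSCs and -0.764 in ASCs. Across the 37 members rho was 0.00095 in EpiSCs and -0.16 in ASCs. Both are descriptions over promoters measured in the same libraries. The ASC level of a member went with its ESC level, with rho of 0.918 across the 37 members and 0.86 across all promoters, so the members that kept most methylation in ESCs also had most in ASCs.

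Where EpiSCs exceeded ESCs by at least 40 points, the place of ASCs between them was given on a scale from 0 at the ESC mean to 1 at the EpiSC mean. Over 32 such members the median was 0.37, from 0.00 at Zp3, Dmc1 and Syce2 to 0.79 at Dpep3. Over the 5301 such promoters of all genes the median was 0.53. In the CpG-rich class the median was 0.27 over 6 members and 0.04 over all 192 promoters. In the intermediate class it was 0.37 over 18 members and 0.27 over all 1397 promoters. The CpG-poor class had 0.22 over 8 members and 0.62 over all 3712. Most of the 5301 promoters were thus CpG-poor, and most of the 32 members were not.

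By median over the members, the low levels in ASCs were local. In the 6000 to 2000 bp before and the 2000 to 6000 bp after the start, the median over the members was 67.2% in ASCs, against 18.3% in ESCs and 90.9% in EpiSCs, and over all promoters tested 59.8%, 16.5% and 90.9%. In a short window around the start, its 250 bp upstream and 50 bp downstream, 33 members could be measured, with medians of 12.8% in ASCs, against 3.92% in ESCs and 94.9% in EpiSCs. Over all 11599 promoters measured there, the medians were 0.481%, 0.500% and 1.03%. The tested members with too few observations there, Msh4, Terb2, Tex19.2 and Zp3, are all CpG-poor. The medians of the short window thus come from a smaller set than those of the surroundings. By median the member promoters differed little from their surroundings in EpiSCs, while in ASCs, and at lower levels in ESCs, they formed a dip.

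**Figure D4:**
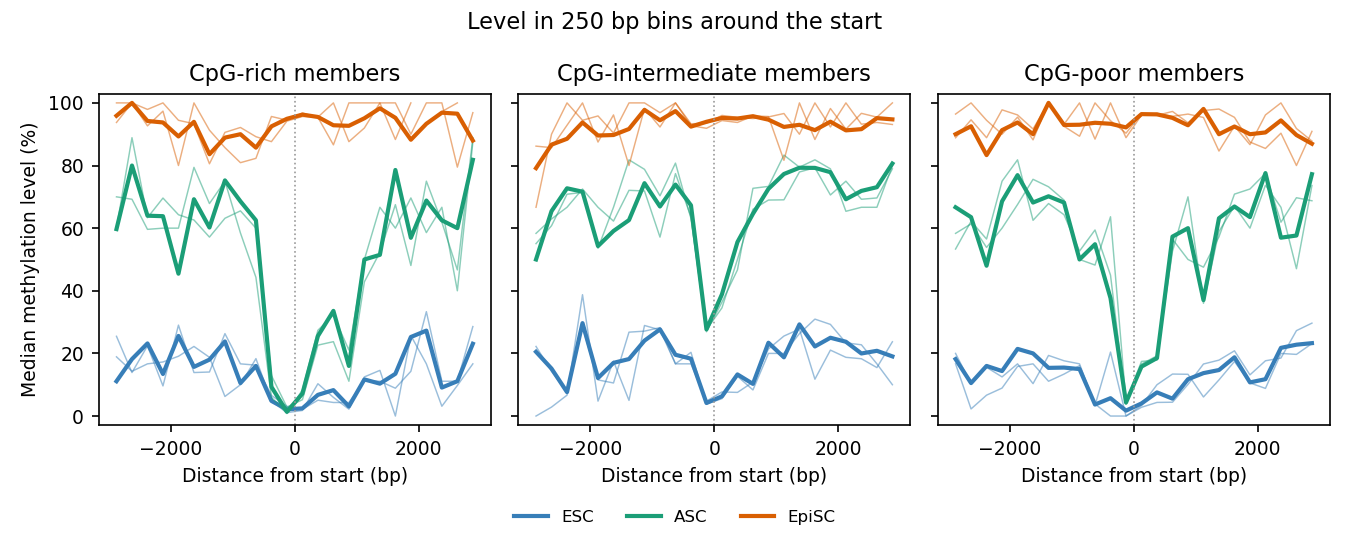
Median methylation level in percent (vertical axis) of the members in bins of 250 bp by distance from the start (horizontal axis, bp), for the 3 CpG classes. Thick lines pool both libraries and thin lines show each library, and just before the start the ASC medians fall to 1.36% in CpG-rich, 27.7% in intermediate and 4.31% in CpG-poor members while the EpiSC medians stay above 92%.

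Over the bins around the start, the ASC median of the CpG-rich members was 9.32% from 500 to 250 bp before the start, 1.36% in the 250 bp before it and 7.16% in the 250 bp after it. The intermediate members had 67.3%, 27.7% and 38.9% in the same places. Not every member had the dip. Mei1 and Dpep3 stood above their surroundings in ASCs, at 77.2% and 82.4% over the promoter against 63.9% and 63.5%. Msh4, Msh5 and Stag3 had surroundings of only 23.3%, 28.1% and 36.0% in ASCs. Dazl kept its level, with 64.6% ± 7.64 in the short window and 71.3% ± 0.67 in its surroundings in ASCs (SD, n = 2 each). Smc1b was at 0% in both ASC libraries in the short window, with at least 51 observations in each library, and at 76.5% ± 2.80 in its surroundings (SD, n = 2). Meiob and Mei4 were at 0.909% and 1.14% in the short window in EpiSCs, within surroundings at 91.0% and 88.5%.

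The members were searched for short motifs on both strands. The E-box CACGTG was present in 17 of 37 member promoters (45.9%) and in 20.7% of all 16964 promoters tested, and in the short window around the start in 11 of 37 (29.7%) and 9.25%. The E2F motif TCCCGC was present in 22 of 37 (59.5%) and in 47.9% of all promoters. The cyclic AMP response element TGACGTCA was present in 1 of 37, in Tex14, and in 3.81% of all. In the printed Hormad1 stretch the E-box occurs in 2 places, and in those of Meioc, Rec8 and Dazl it does not occur. These matches describe the sequence and do not show binding.

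Some members have relatives that act in all dividing cells. In EpiSCs the promoters of Rad21, Smc1a and Rpl10 had lower levels than the related members, and Stag2 had a higher level than Stag3. These values are given without a test. Rad21, the relative of Rec8, was at 18.96% ± 4.09 in EpiSCs (SD, n = 2), against 93.9% ± 0.86 at Rec8. Smc1a, Stag2 and Rpl10, the relatives of Smc1b, Stag3 and Rpl10l, are on chromosome X and were at 32.99% ± 10.2, 33.4% ± 9.47 and 35.9% ± 0.33 in EpiSCs (SD, n = 2 each) and below 1% in ASCs. The corresponding members were at 94.0% ± 0.89, 14.99% ± 4.36 and 98.3% ± 0.61. The part of the X chromosome in those values was not tested.

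Of 18 further meiosis genes tested, 13 were called lower in ASCs than in EpiSCs, beside 28.1% of all promoters, and 9 higher than in ESCs, beside 24.6%. The largest differences from EpiSCs were at Rnf212, which marks crossover sites, with -69.6 points, at 4930447C04Rik (Six6os1), a central element gene, with -68.8 points, and at Mlh3, which resolves crossovers, with -63.7 points. Of 6 further oocyte genes tested, 4 were called lower in ASCs than in EpiSCs and 5 higher than in ESCs, where 4 of the 6 are CpG-poor, a class with 57.1% and 72.9% of promoters called, with Zp2, Oosp1 and Npm2 at 64.3%, 54.8% and 63.7% in ASCs. Of 7 spermatid genes tested, all CpG-poor, 6 were called lower than in EpiSCs and 7 higher than in ESCs, beside 57.1% and 72.9% of CpG-poor promoters, with Ldhc, Spem1 and Tnp1 at 52.1%, 60.4% and 69.7% in ASCs.

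Of 10 genes used in all cells, 5 were called lower in ASCs than in EpiSCs and none higher than in ESCs, beside 28.1% and 24.6% of all promoters. The differences from ESCs ran from -0.336 to 8.92 points, so none could reach 20 points at any p. The largest differences from EpiSCs were at Hprt, Rpl10 and Smc1a, with -43.8, -35.1 and -32.99 points, all on chromosome X. The median EpiSC level of this list was 23.0% ± 1.52, against 93.6% ± 0.97 for the 37 members (SD over 2 libraries).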

How the data were processed

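Bisulfite libraries were prepared with adaptor tagging after bisulfite conversion and sequenced from 1 end. According to the study, the authors trimmed reads with Trim Galore, aligned them to GRCm38 (mm10) with Bismark 0.16.3, removed PCR duplicates, and counted reads per CpG with MethPipe, merging both strands. No MethPipe version is stated in the labels or methods used here. The tables the authors deposited give per CpG the methylation level as a fraction and the coverage as a raw count, for each library separately. Their product was within 0.000115 of a whole number at every site, so methylated reads were recovered and summed over each promoter. Promoters used 1 start per protein-coding gene of GENCODE M21.

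A quasi-binomial model over all 6 libraries had a term for group. Its dispersion was moderated with limma 3.58.1 (R 4.3.3) toward a prior estimated from all promoters tested, and was held at 1 or more. Each contrast was tested by a two-sided F test, adjusted by Benjamini and Hochberg's method over 16964 promoters. A call needed an adjusted p under 0.05 and 20 percentage points between group means. The 95% Wilson interval of a level of 50% at 20 observations is 29.9% to 70.1%, and at 100 of 40.4% to 59.6%. Intervals and the limit of 3 counts at 0 cover counting error only, and observations on 1 read are not independent. 

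Alternatives changed the window, start, minimum, test, depth, dispersion prior and libraries. Fisher's exact test used counts summed over the libraries of a group, so it leaves out the spread between libraries. The members and gene lists were chosen with earlier results of these data known. Among tested members, values per library are given for the 5 with the most negative and the 5 with the most positive difference between ASCs and EpiSCs. They are also given for the 3 highest in ESCs and those with replicates over 15 points apart. Further per-library values accompany printed sequences and members described by role, chosen after values were seen. From other lists, up to 3 genes are named by the size of that difference.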

Additional observations from a re-analysis of the deposited data

How the results depend on the processing

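No difference that was called over the whole promoter changed sign under any alternative. The difference of Syce1 from ESCs, not called there, did change sign, with 3.81% in ASCs and 3.92% in ESCs in the short window. In the short window around the start, however, the median of the CpG-rich members was 1.998% in ASCs and 2.137% in ESCs, in the opposite order to the whole promoter. With a minimum of 100 observations, which leaves 13 members, 11 were called lower in ASCs than in EpiSCs, 7 higher than in ESCs and 12 higher in EpiSCs than in ESCs, beside 13.3%, 4.35% and 19.6% of 7971 promoters. With a difference of 40 points, 9 members were higher in ASCs than in ESCs, beside 14.2% of all promoters.

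In the window of 250 bp upstream and 50 bp downstream of the start, none of 33 members and none of 11599 promoters was called higher in ASCs than in ESCs by the quasi-binomial test. At an unadjusted p under 0.05 with 20 points, 14 members passed, as did 796 of all promoters. In that window the moderated dispersion had 0.76 prior degrees of freedom, against 7.11 over the whole promoter. Alternatives chosen after seeing this 0 called 10 members with the prior taken from the 860 promoters with at least 5 expected observations of both kinds in 4 libraries, 11 by limma on M values and 14 by Fisher's exact test, beside 4.78%, 5.28% and 7.18% of all 11599 promoters. Over the whole promoter that prior gave 31, 21 and 33 calls, as the prior from all promoters did. With the prior from all promoters these stand beside 28.1%, 24.6% and 44.3% of all promoters. The shares with the other prior are not given here. Against EpiSCs, Dazl, Figla, Sohlh1, Stra8 and Sycp1 were not called in the short window (adjusted p = 0.0558 to 0.28) and Stag3 was. The differences there were -30.3, -39.2, -30.0, -18.6 and -32.9 points, larger than over the whole promoter for Dazl, Figla and Sohlh1. With the prior from 860 promoters or Fisher's exact test all but Stra8 were called, and by limma on M values all but Stra8 and Sohlh1.

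Leaving out each library in turn leaves 1 group with a single library, whose spread is then taken from the other groups and from the moderated dispersion. This gave 30 to 31 members lower in ASCs than in EpiSCs, 20 to 21 higher in ASCs than in ESCs and 33 higher in EpiSCs than in ESCs, beside 21.6% to 27.3%, 21.1% to 23.7% and 43.6% to 45.1% of all promoters. Against ESCs, Spo11 lost its call without ASC replicate 1 (17.5 points) and Rpl10l without ESC replicate 2 (20.9 points, adjusted p = 0.0542), and Syce1 gained one without ASC replicate 1 (20.1 points).

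With the replicate number as a block, the calls were 31, 21 and 33, beside 24.3%, 21.4% and 44.0% of all promoters. Same-numbered libraries did not deviate together (r between -0.00502 and 0.00855 over 16964 promoters). Counting error is part of each deviation, so these values cannot exclude a pairing by number.

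Class medians moved by more than the spread between libraries. Within 500 bp of the start, CpG-rich members had 10.1% in ASCs, against 3.01% in ESCs and 95.2% in EpiSCs, intermediate members 38.2% in ASCs and 8.20% in ESCs, and CpG-poor members 21.8%, 5.04% and 94.7%. With all sites of at least 3 reads weighted equally, CpG-rich members had 14.8% in ASCs and 92.8% in EpiSCs, intermediate members 37.6% in ASCs and 11.5% in ESCs, and CpG-poor members 22.6%, 5.73% and 93.8%. With 33 or more CpG sites as rich, rich members had 23.6% in ASCs and 6.59% in ESCs, and the others 36.1%, 9.44% and 93.5%. With a minimum of 40 observations, intermediate members had 41.6% in ASCs, and CpG-poor members 32.9%, 8.80% and 90.7% in ASCs, ESCs and EpiSCs. The cause of these shifts was not tested.

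Coverage of about 3 reads per CpG limits single sites, and the interval of a promoter level is widest for promoters with few observations.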
